A study of Rattus norvegicus with 9 samples.

Results

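The genes described here encode 3 subunits of the NMDA receptor (Grin1, Grin2a and Grin2b), a postsynaptic scaffold (Dlg4), a postsynaptic kinase (Camk2a) and 2 proteins of the presynaptic terminal (Snap25 and Syn1). These 7 members were chosen by name and Ensembl identifier from the 29516 identifiers in the count files. No measured value entered the rule, but the choice was made with earlier results of these data known. All 7 of the 7 identifiers were present. They were followed in RNA from the cerebral cortex of male BN rats (substrain BN/SsNOlaHSD), fed ad libitum and killed at 6, 12 or 28 months of age. The labels name no transgene or treatment. RNA of 2 rats was pooled for each library, and ribosomal RNA was removed before sequencing on the SOLiD system. The labels give 3 libraries to each age, named p1, p2 and p3 at 6 months, p7, p8 and p9 at 12 months, and p4, p5 and p6 at 28 months.

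The files of p2 and p9 are identical for all 29516 identifiers, so that a single library stands under 6 and under 12 months and the files hold 8 independent libraries. Since the labels do not settle its age, comparisons between ages were made without it, with 2 libraries at 6 months, 2 at 12 months and 3 at 28 months, and its values are given beside them as those of the shared library. Libraries held from 6513376 to 9196951 reads on genes, and a single identifier took from 44.0 to 52.4% of them. The labels do not say that libraries of the same age were made from separate litters or batches, and p-values measure only the spread between these pooled libraries. In bulk cortex RNA, fewer cells of a type and less RNA per cell cannot be told apart.

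NMDA receptors are glutamate-gated channels that let calcium into the postsynaptic neuron when glutamate release coincides with depolarization, and they are best known for their part in synaptic plasticity and memory. Each receptor contains the obligatory GluN1 subunit, encoded by Grin1, together with GluN2 subunits such as GluN2A (Grin2a) and GluN2B (Grin2b). In the forebrain GluN2B predominates early in life and GluN2A increases during postnatal development. PSD-95, encoded by Dlg4, anchors the receptors in the postsynaptic density, where the alpha subunit of calcium/calmodulin-dependent kinase II, encoded by Camk2a, responds to the calcium that enters. On the presynaptic side, SNAP-25 is a SNARE protein of vesicle fusion and synapsin I, encoded by Syn1, ties synaptic vesicles to one another and to the cytoskeleton.

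None of the 7 genes was differentially expressed (DE) between any pair of ages at an FDR under 0.05. By mean normalized count, 5 of the 7 (Grin2a, Grin2b, Camk2a, Snap25 and Syn1) were ordered from 6 through 28 to 12 months, highest first, as were 23.5% of the 10968 genes averaging 20 or more reads. This order of means was not tested, and no neighbouring ages in this order were separated by the test. Members that vary together from library to library are not separate observations of this order. Snap25, Grin2b and Syn1 showed the lowest ratios, at 0.677, 0.700 and 0.724 of the 6-month level at 12 months, with FDR values of 0.203, 0.190 and 0.304 by edgeR's quasi-likelihood test. A positive log2FC denotes a higher level in the older rats, and normalized counts are CPM (reads scaled to a common library size) after TMM over the 8 libraries. They are not corrected for gene length, so levels are compared between libraries and not between genes.

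Grin1 (ENSRNOG00000011726) had 74.5 and 58.5 normalized counts in p1 and p3 at 6 months, 89.7 and 69.4 in p7 and p8 at 12 months, 59.4, 73.9 and 77.8 in p4, p5 and p6 at 28 months, and 61.5 in the shared library. The ages overlapped, and the highest library, p7, was 1.53 times the lowest, p3. The log2FC of Grin1 was 0.25 between 6 and 12 months (standard error 0.19, 95% interval -0.17 to 0.67), 0.08 between 6 and 28 months (-0.33 to 0.49) and -0.17 between 12 and 28 months (-0.56 to 0.22). It was the member with the smallest spread over the 8 libraries, with a coefficient of variation of 15.1%, and its FDR was 0.603, 0.970 and 0.857 in these comparisons by the quasi-likelihood test.

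Grin2a (ENSRNOG00000033942) had 117 and 137 normalized counts in p1 and p3, 107 and 104 in p7 and p8, 91.5, 128 and 103 in p4, p5 and p6, and 78.6 in the shared library. Both 12-month libraries lay below both 6-month libraries, while the 28-month libraries overlapped both ages, with p4 and p6 below the 12-month libraries and p5 between p1 and p3. The log2FC of Grin2a was -0.27 between 6 and 12 months (standard error 0.15, 95% interval -0.61 to 0.06), -0.24 between 6 and 28 months (-0.65 to 0.16) and 0.04 between 12 and 28 months (-0.35 to 0.42).

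Grin2b (ENSRNOG00000008766) had 108 and 97.7 normalized counts in p1 and p3, 76.4 and 68.3 in p7 and p8, 70.5, 103 and 72.7 in p4, p5 and p6, and 49.6 in the shared library. Its 12-month libraries lay below those of 6 months, and at 28 months p4 and p6 were close to the 12-month level and p5 was within the 6-month range. The log2FC of Grin2b was -0.51 between 6 and 12 months (standard error 0.15, 95% interval -0.85 to -0.18, unadjusted p = 0.00736 and FDR 0.190 by the quasi-likelihood test). The FDR of Grin2b in this comparison was 0.344 by DESeq2's Wald test and 0.260 by the edgeR exact test, and lay between 0.0268 and 0.997 over the alternatives. The log2FC was -0.33 between 6 and 28 months (-0.75 to 0.10) and 0.19 between 12 and 28 months (-0.23 to 0.61).

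**Figure D1:**
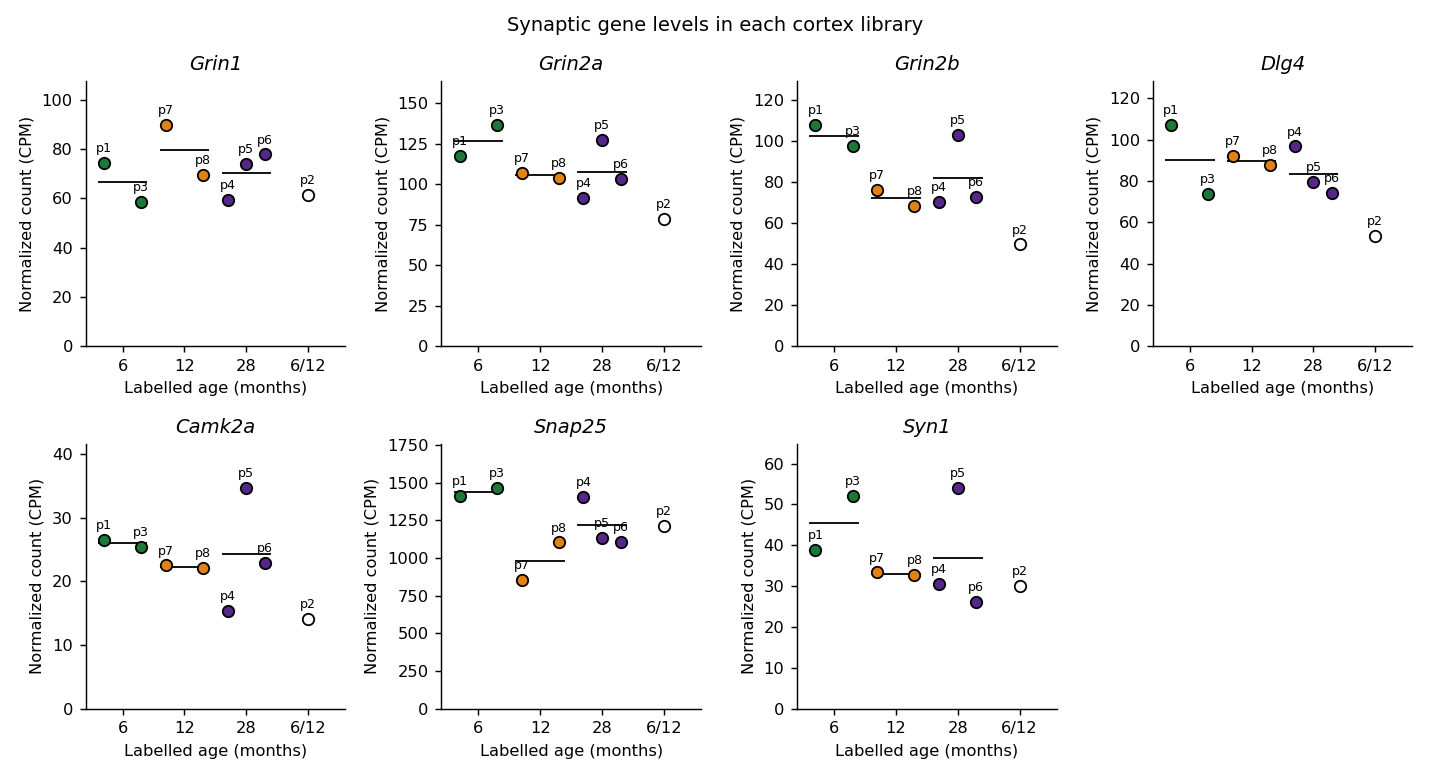
Normalized counts (CPM, vertical axes from 0) of the 7 genes in each of the 8 independent libraries, by labelled age in months, with the shared library (p2, identical to p9) as an open point at 6/12. Bars are means of the 2 or 3 libraries of an age; the shared library was the lowest of the 8 for Grin2a, Grin2b, Dlg4 and Camk2a, and among the 28-month libraries p5 was the highest for Grin2a, Grin2b, Camk2a and Syn1.

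The balance of the GluN2 subunit transcripts was compared as the ratio of Grin2a to Grin2b reads within each library, which needs no scaling for depth. Since the identifiers differ in length, the ratio itself does not say which transcript was more abundant, and only its differences between libraries are compared. The ratio was 1.09 in p1 and 1.40 in p3 at 6 months, 1.40 in p7 and 1.53 in p8 at 12 months, 1.30, 1.24 and 1.42 in p4, p5 and p6 at 28 months, and 1.58 in the shared library. The lowest ratio was that of p1, labelled 6 months, and the highest that of the shared library, labelled 6 and 12 months.

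On the log2 scale the mean Grin2a to Grin2b ratio was 0.30 ± 0.25 at 6 months (SD, n = 2), 0.55 ± 0.088 at 12 months (SD, n = 2) and 0.40 ± 0.10 at 28 months (SD, n = 3). From 6 to 12 months the difference was 0.24 (two-sided exact permutation p = 0.333, the smallest that 2 libraries against 2 allow). It was 0.094 between 6 and 28 months (exact permutation p = 0.6) and -0.15 between 12 and 28 months (exact permutation p = 0.3), where 2 against 3 allow no p below 0.1. Between 6 and 28 months the difference turned to -0.026 with all files as labelled and to -0.086 without p1. A difference in the Grin2a to Grin2b balance between ages was not detectable with these libraries.

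**Figure D2:**
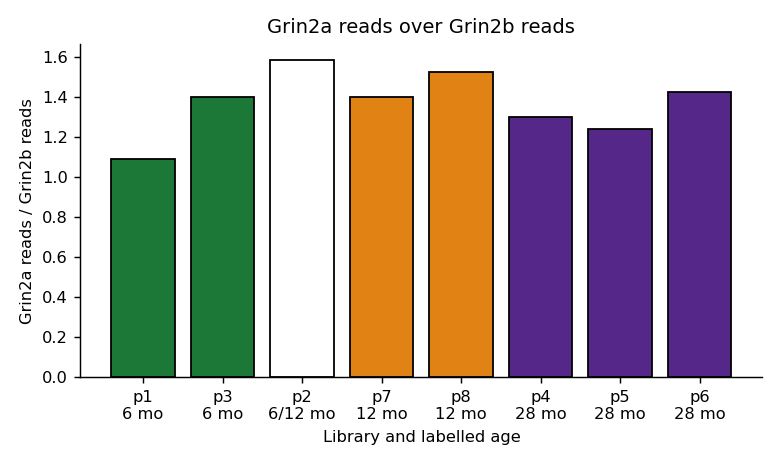
Reads of Grin2a divided by reads of Grin2b in each of the 8 independent libraries (bars from 0, coloured by labelled age, shared library in white). The ratio was between 1.09 in p1 and 1.58 in the shared library, and each age lay within this range.

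Dlg4 (ENSRNOG00000018526), the scaffold gene, had 107 and 73.8 normalized counts in p1 and p3, 92.1 and 87.8 in p7 and p8, 96.8, 79.6 and 74.2 in p4, p5 and p6, and 53.3 in the shared library. The libraries p1 and p3, both of 6 months, held the highest and the lowest value among the 7 libraries compared, so that the other ages lay within the 6-month range. The log2FC of Dlg4 was -0.02 between 6 and 12 months (standard error 0.19, 95% interval -0.45 to 0.42), -0.12 between 6 and 28 months (-0.55 to 0.32) and -0.10 between 12 and 28 months (-0.46 to 0.26). Its sign between 6 and 28 months and between 12 and 28 months turned positive with all files as labelled (0.10 and 0.11).

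Camk2a (ENSRNOG00000018712) had 26.6 and 25.4 normalized counts in p1 and p3, 22.5 and 22.1 in p7 and p8, 15.3, 34.7 and 22.9 in p4, p5 and p6, and 14.1 in the shared library. At 6 and at 12 months both values differed little, whereas the 28-month libraries p4 and p5 enclosed all the younger values apart from the shared library. The identifier was covered by 101 to 251 reads per library, although the transcript is known to be abundant in forebrain excitatory neurons, and the exons counted under it were not examined here. The log2FC of Camk2a was -0.23 between 6 and 12 months (95% interval -0.59 to 0.13), -0.10 between 6 and 28 months (-0.71 to 0.51) and 0.13 between 12 and 28 months (-0.46 to 0.72).

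Snap25 (ENSRNOG00000006037), with 5979 to 12948 reads per library the most deeply covered member, had 1410.1 and 1465 normalized counts in p1 and p3, 852 and 1103 in p7 and p8, 1405 in p4, 1136 in p5, 1108 in p6 and 1215 in the shared library. The ages did not overlap, with both 12-month libraries lowest and both 6-month libraries highest. The log2FC of Snap25 was -0.56 between 6 and 12 months (standard error 0.17, 95% interval -0.95 to -0.18, unadjusted p = 0.00889 and FDR 0.203 by the quasi-likelihood test). The FDR of Snap25 there was 0.132 by DESeq2's Wald test and 0.193 by the edgeR exact test, and lay between 0.0501 and 0.997 over the alternatives. The log2FC was -0.24 between 6 and 28 months (-0.61 to 0.12) and 0.32 between 12 and 28 months (-0.07 to 0.72), and the quasi-likelihood FDR was 0.870 and 0.724.

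The libraries with the highest Snap25 levels also differed from the others in technical values. Reads that fell on more than a single gene and were set aside as ambiguous made up 0.0707 to 0.0794% of the mapped reads in p1, p3 and p4, where Snap25 had 1405 to 1465 normalized counts, and 0.0356 to 0.0481% in the other 5 libraries, where it had 852 to 1215. The libraries with the larger ambiguous share were thus both 6-month libraries used in the comparison and a single 28-month library. Within the other 5, Snap25 and the share were not in the same order. The largest share among these, 0.0481% in p8, went with 1103 normalized counts, and 0.0432% in the shared library with 1215. The libraries p1, p3 and p4 also held the most reads on genes, 8648997 to 9196951 against 6513376 to 7310231 in the other 5. The parts of the ambiguous share and of depth in the Snap25 result were not tested.

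Syn1 (ENSRNOG00000010365) had 38.9 and 52.0 normalized counts in p1 and p3, 33.4 and 32.7 in p7 and p8, 30.6, 54.0 and 26.1 in p4, p5 and p6, and 30.0 in the shared library. The 12-month libraries lay below those of 6 months, and at 28 months p5 held the highest and p6 the lowest value of the 8 libraries, a ratio of 2.07. The log2FC of Syn1 was -0.47 between 6 and 12 months (standard error 0.18, 95% interval -0.86 to -0.07, unadjusted p = 0.0272 and FDR 0.304 by the quasi-likelihood test). The FDR of Syn1 there was 0.701 by DESeq2's Wald test and 0.386 by the edgeR exact test, and lay between 0.0311 and 0.997 over the alternatives. The log2FC was -0.30 between 6 and 28 months (-0.91 to 0.31) and 0.17 between 12 and 28 months (-0.39 to 0.74).

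Promoters are shown for Syn1, which varied with Grin2a from library to library, and for Grin1, which had the lowest r with Snap25, as the 250 bases before the RefSeq start in the GRCr8 build, a later build than the one used for the counts. That of Syn1 lies at chrX:3725495-3725744 on the plus strand and that of Grin1 at chr3:28528755-28529004 on the minus strand. Capitals mark the cAMP response element TGACGTCA, searched on both strands together with the GC box GGGCGG. The element was found 1 time before Syn1 and 0 times before Grin1, and 1.59% of 33469 promoter windows of the same length hold it. The GC box was found in neither and is held by 30.5% of the windows. A match describes letters in the window and not a bound site. Of 4 promoter entries with a member's symbol, only those of Syn1 and Grin1 are shown. The r of Syn1 with Grin2a and that of Grin1 with Snap25 each had an adjusted exact permutation p of 0.0632. A link of these sequences to the correlations was not tested.
Syn1: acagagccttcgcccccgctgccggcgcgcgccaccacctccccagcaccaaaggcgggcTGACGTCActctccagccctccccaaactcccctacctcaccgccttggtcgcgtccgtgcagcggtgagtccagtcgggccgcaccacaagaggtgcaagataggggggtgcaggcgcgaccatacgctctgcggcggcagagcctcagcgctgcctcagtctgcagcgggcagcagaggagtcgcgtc
Grin1: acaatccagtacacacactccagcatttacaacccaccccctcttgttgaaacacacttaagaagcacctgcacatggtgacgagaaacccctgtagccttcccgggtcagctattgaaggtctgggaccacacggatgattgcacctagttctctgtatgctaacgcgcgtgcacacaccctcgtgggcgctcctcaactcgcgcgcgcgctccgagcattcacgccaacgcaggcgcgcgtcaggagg
The GC content was 69.6% before Syn1 and 57.6% before Grin1, against a median of 51.2% over all windows.

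Between 6 and 12 months, 0 of the 7 members passed the quasi-likelihood test (FDR under 0.05), where 1.2% of the 15966 genes tested were called. DESeq2's Wald test and the edgeR exact test also called 0 of the 7. Snap25, Grin2b and Syn1 had an unadjusted p under 0.05, as did 13.6% of all genes tested. The log2FC was negative for 6 of the 7 members, Grin1 being the exception, with a median of -0.27 against -0.01 over all genes tested, of which 51.1% were negative. The libraries of the 2 ages did not overlap for 5 of the 7 members, against 45.4% of all genes tested. These 5 (Grin2a, Grin2b, Camk2a, Snap25 and Syn1) were each lower at 12 months. Only 2 libraries stood at each age, so a lack of overlap is easily reached, and what makes up this share was not tested. Members that vary together from library to library are not separate observations in these counts.

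The 6 to 12 month comparison depended on single libraries. Without p1, Syn1 was DE (log2FC -0.65, quasi-likelihood FDR 0.0311), and leaving out p3 instead, Grin2b was DE (log2FC -0.59, FDR 0.0268). In these fits a single 6-month library remained, which was assumed to vary like the 12-month pair, and over all genes tested 638 and 889 were called in place of 191. With the shared library kept under both ages as labelled, the log2FC of Grin2b, Snap25 and Syn1 was -0.39, -0.37 and -0.33, and the quasi-likelihood FDR of each was 0.997. With the shared library placed at 12 months only, the log2FC of Grin2b was -0.68 (FDR 0.247) and with it at 6 months only -0.25 (FDR 0.863).

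Between 6 and 28 months, 0 of the 7 members were called, where 0.206% of the 16042 genes tested were, and 0 had an unadjusted p under 0.05. The DESeq2 and exact tests called 0 as well. The log2FC was negative for 6 of the 7, again except Grin1, with a median of -0.24 against -0.01 over all genes. A lack of overlap between the 2 ages was seen for Snap25 only, which was lower in each of the 28-month libraries than in both 6-month libraries, against 21.9% of all genes tested. The intervals still allow, for example, a log2FC of -0.75 for Grin2b or -0.91 for Syn1, and no member was shown to be unchanged.

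Between 12 and 28 months, 0 of the 7 members were called, where 0.12% of the 15840 genes tested were, and 0 had an unadjusted p under 0.05. The DESeq2 and exact tests again called 0. The log2FC was positive for 5 of the 7 and negative for Grin1 and Dlg4, with a median of 0.13 against 0.01 over all genes. Snap25 alone showed no overlap, higher at 28 months, against 24.6% of all genes tested. The 12-month libraries also enter the comparison with 6 months, so that the opposite signs of these comparisons are not independent. A single test of any difference among the 3 ages over the 7 libraries called 0 of the 7 members, where 0.694% of 16283 genes were called. Its unadjusted p was 0.0325 for Snap25 (FDR 0.465) and 0.0678 for Grin2b (FDR 0.549) by the quasi-likelihood test.

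**Figure D3:**
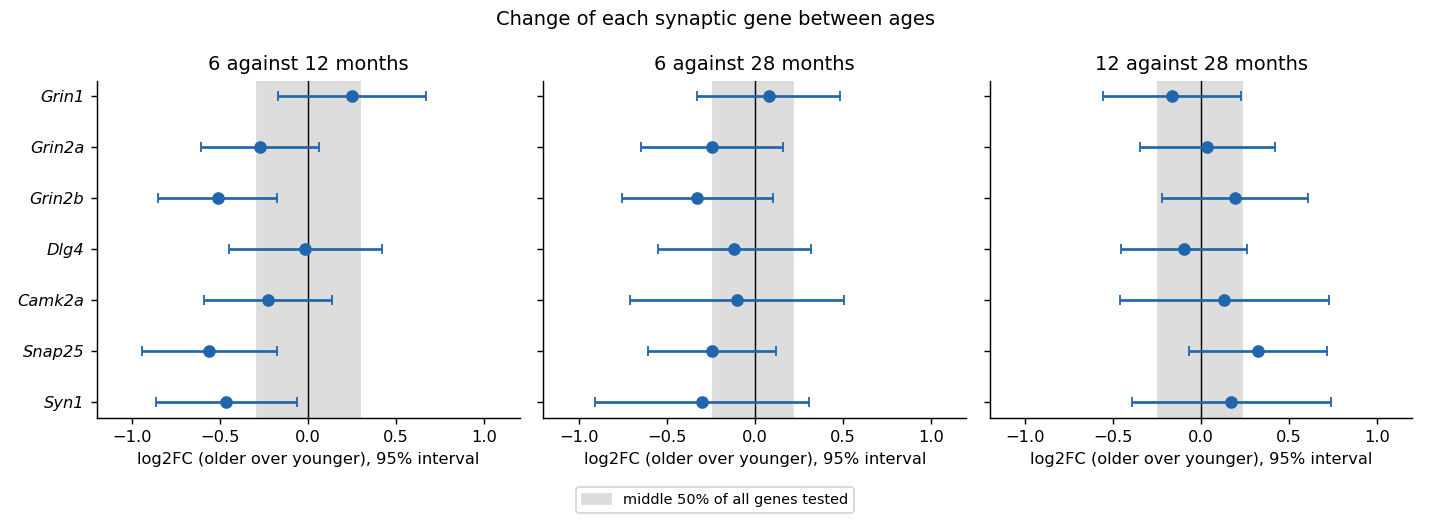
Log2FC (horizontal axes, older over younger age) of the 7 genes with 95% intervals from edgeR's quasi-likelihood fits of each pair of ages, without the shared library. Grey bands hold the middle 50% of the log2FC of all genes tested; the intervals of Grin2b, Snap25 and Syn1 between 6 and 12 months do not reach 0, and each of the other intervals does.

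Members varied together from library to library in part. Over the 8 independent libraries, log2 normalized counts of Grin2a and Grin2b had a Pearson r of 0.92 (exact permutation p = 0.00241, adjusted over 21 pairs p = 0.0409) and a Spearman rho of 0.83 (exact permutation p = 0.0154, adjusted 0.0807). Grin2a and Camk2a had an r of 0.90 (exact permutation p = 0.00389, adjusted 0.0409) and a rho of 0.86 (exact permutation p = 0.0107, adjusted 0.075). Grin2b and Camk2a had an r of 0.86 (exact permutation p = 0.00605, adjusted 0.0424) and a rho of 0.93 (exact permutation p = 0.00223, adjusted 0.0469). These were the 3 pairs with an adjusted Pearson p under 0.05.

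With the 2 libraries farthest from the median of the first gene left out, these r values were 0.86 for Grin2a with Grin2b, 0.98 for Grin2a with Camk2a and 0.79 for Grin2b with Camk2a. Syn1 followed the same libraries, with an r of 0.81 with Grin2a (exact permutation p = 0.0151, adjusted 0.0632) and a rho of 0.90 (exact permutation p = 0.00456, adjusted 0.0479), and r was 0.84 without p2 and p3. Grin1 and Snap25 were the pair with the lowest r, at -0.80 (exact permutation p = 0.0127, adjusted 0.0632) and a rho of -0.67 (exact permutation p = 0.0831, adjusted 0.249), and r was -0.42 without p3 and p7. Of the 21 pairs 18 had a positive r, with a median of 0.35. The same values were not computed for pairs of other genes, so these correlations are not shown to be particular to the members. All values of a library share its depth and its scaling, and the libraries come from 3 ages with too few libraries each for an r within an age.

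The highest library was p3 for Grin2a, p1 for Grin2b and p5 for Camk2a, and the shared library was the lowest for each of these genes. With Dlg4 it was the lowest of the 8 for 4 of the 7 members (57.1%), against 16.9% of the 10968 genes averaging 20 or more reads. Grin2a, Grin2b and Camk2a varied together over these libraries, so the 4 members are not separate observations. Camk2a and Syn1 spread most, with coefficients of variation of 28.3 and 28.0% over the 8 libraries, and 81.7 and 81.1% of these 10968 genes spread less. Those of Grin2b, Dlg4, Grin2a and Snap25 were 24.9, 20.0, 17.3 and 17.0%.

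**Figure D4:**
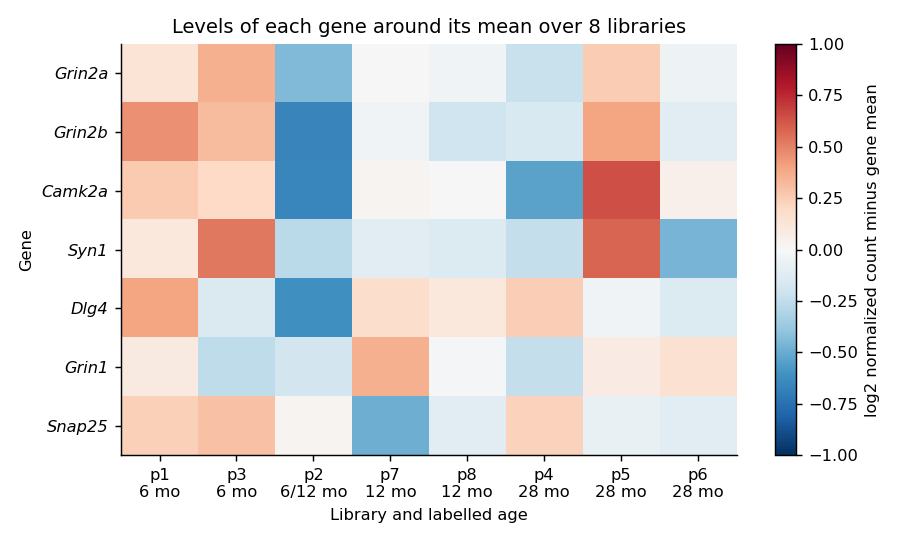
Log2 normalized count of each gene minus its mean over the 8 independent libraries (colour scale), with libraries in columns by labelled age and genes in rows. Grin2a, Grin2b, Camk2a and Syn1 are above their means in p1, p3 and p5 and below in p2 and p4, while Grin1 and Snap25 have opposite signs in 6 of the 8 libraries, the exceptions being p1 and p8.

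The 99 further genes with a name and an average of 20 or more reads were searched for those most like the mean log2 level of the 7 members over the 8 libraries. The closest were EPHA6_RAT (ENSRNOG00000029184), Nptxr (ENSRNOG00000016156) and Epha3 (ENSRNOG00000030285), with a Pearson r of 0.88, 0.86 and 0.86, given as a measure of likeness and without a test. EPHA6_RAT and Epha3 are ephrin receptors and Nptxr is the neuronal pentraxin receptor, a protein of excitatory synapses. Nptxr had 129 and 117 normalized counts in p1 and p3, 99.2 and 80.7 in p7 and p8, 105, 175 and 101 in p4, p5 and p6, and 73.3 in the shared library, the lowest of the 8. These names come from the study's own tables, which were chosen on the same samples.

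Other synaptic genes could be followed only as far as a name was paired with an identifier. Of 38 further genes of glutamate receptors, scaffolds, kinases and vesicle release, 2 had an identifier, Nptxr and Arc, and 0 of the 2 were DE in any comparison. Arc (ENSRNOG00000043465), an activity-regulated gene of the postsynapse, had 58.8 and 59.1 normalized counts in p1 and p3, 61.7 and 35.7 in p7 and p8, 43.1, 28.3 and 24.7 in p4, p5 and p6, and 15.9 in the shared library. Its 28-month libraries lay below both 6-month libraries. From 6 to 28 months Arc had a log2FC of -0.88 ± 0.22 (SE) and did not pass the test (quasi-likelihood FDR 0.315). Since its name came through a choice made on these samples, this value is not set against those of the members.

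Markers of other cells differed between the same libraries. Of 23 listed markers 9 had an identifier, most of them picked by the study on these samples. At 12 against 6 months 4 of the 9 were higher and 0 lower by the quasi-likelihood test (Gfap, Cd74, Alb and Apob), and at 28 against 12 months 0 were higher and 3 lower (Gfap, Cd74 and Aif1). In p1 and p3 at 6 months Alb had 3 reads each and Apob 2 reads each, so both calls rest on few reads. Gfap, an astrocyte gene, lay between 72.4 and 89.1 normalized counts at 6 months, between 145 and 155 at 12 months, between 52.3 and 77.0 at 28 months, and at 151 in the shared library. The sum of the microglial and MHC class II genes Aif1, Cd74 and Fcgr3a was 10.8 to 12.7 at 6 months, 41.6 to 46.0 at 12 months, 10.5 to 16.2 at 28 months and 30.3 in the shared library. Most of the 12-month sum was Cd74, at 28.4 in p7 and 35.9 in p8. Between 6 and 12 months Aif1 and Fcgr3a did not pass the test (quasi-likelihood FDR 0.238 and 0.518). Aif1 was at 5.15 to 5.66 at 6 months, 8.79 to 8.98 at 12 months and 4.88 in the shared library.

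The sum of the plasma and red blood cell genes Alb, Apob and LOC689064 was 23.5 to 31.9 at 6 months, 46.2 to 55.9 at 12 months, 20.1 to 29.9 at 28 months and 75.4 in the shared library. LOC689064 made up most of this sum in each library, and it did not pass the test between 6 and 12 months (quasi-likelihood FDR 0.306). Apob was at 0 in p6, and no other of these markers was at 0 in any library. The identifier paired with Tf, which did not pass the test in any comparison, carries the description of another gene in the study's table. The part of these differences in the values of Grin2b, Snap25 and Syn1 was not tested.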

How the data were processed

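The authors converted the colour space reads, aligned these with Bowtie to the Ensembl release 65 rat genome (RGSC 3.4), used SAMtools for sorting and HTSeq for counting, and deposited raw counts for 29516 identifiers per library. Versions and the strand setting are not given in the sources used here, and reads of overlapping or antisense genes cannot be told apart. Between 47.5 and 60.0% of mapped reads fell on no gene, and these and the ambiguous reads were left out of library sizes.

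The 7 members, the gene lists and the tests were chosen with earlier results of these data known. Member names come with their identifiers from the list of members; 99 further names are among those that the supplementary tables pair with an identifier. The RefSeq table held 0 Ensembl identifiers, so 36 of 38 further synaptic genes and 14 of 23 markers were not analysed here. The values of 1 marker are not reported here. The named genes are the members, the listed genes with an identifier, and the 3 named genes most like the members' mean.

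Genes reaching 5 reads in 1 or more libraries of a comparison were normalized with TMM and tested across all genes with edgeR 4.0.16 (R 4.3.3), by the quasi-likelihood test in a separate fit for each pair of ages, with Benjamini-Hochberg adjustment at 0.05. Standard errors are the absolute log2FC divided by the root of F. The main fit of each pair of ages was tested on simulated data, and the other fits were not. Alternatives were the files as labelled, the shared library at a single age, DESeq2 1.42.0 (Wald test, or likelihood ratio test for any age), the edgeR exact test with tagwise dispersion, RLE size factors, 2 other filters, 1 fit over the 7 libraries, library sizes without the most abundant identifier, and each library left out in turn. Permutation tests were run in Python 3.11.15.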

Additional observations from a re-analysis of the deposited data

How the results depend on the processing

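The number of members called was 0 of 7 in each of the 3 comparisons and in the test of any age under every alternative that kept the same or more libraries. With 1 library left out, it was between 0 and 1 from 6 to 12 months and 0 otherwise. Of 196 log2FC values under the other alternatives 188 kept their sign and their side of the threshold. In both comparisons with 28 months, the files as labelled and the shared library at a single age are the same fit. Each value of that fit is counted 2 times here. The exceptions, all with the shared library included, were Dlg4 at 0.19 and Camk2a at 0.0033 between 6 and 12 months with it at 6 months only. With all files as labelled, or with it at a single age, they were Dlg4 at 0.098 and Camk2a at 0.14 between 6 and 28 months, and Dlg4 at 0.11 between 12 and 28 months. The cause was not tested. Leaving out 1 library gave ranges that crossed 0 for Dlg4 between 6 and 12 months (-0.26 to 0.29). Between 6 and 28 months they did so for Grin1 (-0.082 to 0.27), Dlg4 (-0.36 to 0.18) and Camk2a (-0.45 to 0.15). Between 12 and 28 months they did so for Grin1 (-0.34 to 0.032), Grin2a (-0.11 to 0.14), Grin2b (-0.0074 to 0.29), Camk2a (-0.22 to 0.38) and Syn1 (-0.21 to 0.37), and without p5 the sign turned for the last 4 of these. The difference of the log2 Grin2a to Grin2b ratio between 6 and 28 months was -0.026 with all files as labelled and lay between -0.086 and 0.27 with 1 library left out. It kept its sign between 6 and 12 months (0.064 to 0.42) and between 12 and 28 months (-0.21 to -0.088). The numbers of libraries, 2 or 3 an age, limit what can be called. Over all genes tested, the number called from 6 to 12 months was 191, against 0 as labelled (485 at an unadjusted p under 0.05), 19 with the shared library at 6 months, 109 with it at 12 months, 112 with a filter of 1 read, 452 by the exact test and 360 to 889 with 1 library left out. From 6 to 28 months it was 33, against 18 as labelled, 70 by DESeq2, 131 by the exact test, 199 with the filter of 1 read and 0 to 137 with 1 library left out (0 without p6, 549 at an unadjusted p under 0.05). From 12 to 28 months it was 19, against 9 as labelled, 82 by DESeq2, 117 by the exact test, 139 with the filter of 1 read and 0 to 142 with 1 library left out (0 without p6 or p8). For any age it was 113, against 1 as labelled, 24 and 57 with the shared library at 6 or 12 months, 215 by DESeq2, 365 with the filter of 1 read and 54 to 251 with 1 library left out.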
